A study of Mus musculus with 22 samples.

Results

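The comparison set the higher against the lower dose of cyclosporin A after 48 h in primary mouse hepatocytes, and asked which microRNAs (miRNAs) differed between 50 and 10 µM. It used 6 of the 22 arrays of the series, 3 per dose, chosen by the dose and time that the column names of the deposited value table give, and paired by the experiment number (1 to 3) of the labels. The cells were hepatocytes of C57Bl6 mice, cultured in medium with serum, and every culture received the solvent dimethyl sulfoxide (DMSO) at 0.5%, with 50 µM, 10 µM or no cyclosporin A. The other groups used beside them were DMSO alone at 48 h (6 arrays) and, at 24 h, 50 µM (2 arrays), 10 µM (3 arrays) and DMSO (5 arrays). The labels call the samples biological replicates but do not say whether they came from separate animals, so the p-values measure the spread between these samples, which may be partly technical. The treatment text of the labels speaks of HepG2 cells, a human liver tumour line, while the cell type, source and title fields all name primary mouse hepatocytes.

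Cyclosporin A binds cyclophilins inside the cell, and with cyclophilin A it inhibits the phosphatase calcineurin, which is why it is used to suppress T cells. In the liver it is known for cholestasis, since it inhibits the bile salt export pump of hepatocytes, and for stress of the endoplasmic reticulum and the mitochondria in cultured liver cells. A miRNA is a short RNA cut from a hairpin precursor. It guides Argonaute proteins to messenger RNAs that pair with its seed, bases 2 to 8, and lowers their translation or stability, so miRNAs with the same seed share many predicted targets. Hepatocytes are known for a very high content of miR-122-5p, with miR-192-5p and let-7 miRNAs among the other abundant species.

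The names of the arrays had to be settled first. Each column of the value table matched 1 spot file in rank order (lowest rank correlation 1.000, against at most 0.968 with any other file), but only 6 columns matched the file deposited under their own sample and 16 matched a file of another sample, always of the same experiment number. At 48 h, and likewise at 24 h, the cyclosporin A files of experiments 2 and 3 were exchanged between the doses. Values below follow the column names. With the names of the spot files instead, no miRNA passed the test in either direction by limma (15 had an unadjusted p under 0.05), so every call below rests on the column names. The 3 arrays at 50 µM lay on slide 1 with the 10 µM array of experiment 2, while the 10 µM arrays of experiments 1 and 3 lay on slide 3.

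Depth in an array is its signal over background. The 75th percentile of the probe signal lay between 253 and 605 units on the 6 arrays, and between 172 and 321 miRNAs of 1247 were well above background on them. Spots flagged as outliers made up 9.24%, 8.44% and 4.21% of the spots on the 50 µM arrays and 4.23%, 10.3% and 3.94% on the 10 µM arrays, in the order of experiments 1 to 3. The precision is limited by 3 arrays per dose: an exact permutation test of 3 against 3 that ignores the pairing cannot go below p = 0.1. A test that keeps the 3 pairs has fewer arrangements and a higher limit. The tests below therefore come from a limma fit across all miRNAs and all 22 arrays.

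The cell type label was checked against marker miRNAs. miR-122-5p, the defining hepatocyte miRNA, took 10.67%, 10.5% and 8.52% of the summed signal at 10 µM and 7.10%, 7.41% and 7.32% at 50 µM. None of the 2 erythroid markers (miR-451a, miR-144-3p) and none of the 5 biliary and epithelial markers of the miR-200 family was above background on any array. Among the leukocyte markers 1 of 5 was detected, among the mesenchymal markers 1 of 5 and among the endothelial markers 1 of 2, and none of these passed the test between the doses. The leukocyte markers summed to between 0.0145% and 0.0202% of the signal at 10 µM and between 0.0138% and 0.0172% at 50 µM, and the mesenchymal ones to between 0.0115% and 0.0231% and between 0.0122% and 0.0176%. The endothelial markers summed to between 0.0216% and 0.0335% at 10 µM and between 0.0151% and 0.0184% at 50 µM, without overlap. The tested one, miR-126-3p, differed in level by -0.67, 0.06 and 0.01 in the pairs of experiments 1 to 3. The part of these markers in the results was not tested.

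The mature sequences that the main results turn on are given here, as RefSeq lists them on mouse build GRCm38.p6, 5′ to 3′, with the seed in capitals. The first set was lower at 50 µM and comes from the miR-17/92a cluster on chromosome 14 and its relative in the Mcm7 gene span on chromosome 5, in which miR-20a-5p, miR-93-5p and miR-106b-5p have the same seed.
miR-18a-5p: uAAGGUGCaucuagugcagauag
miR-20a-5p: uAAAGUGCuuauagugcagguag
miR-93-5p: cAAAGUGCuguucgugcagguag
miR-106b-5p: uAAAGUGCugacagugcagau
miR-19b-3p: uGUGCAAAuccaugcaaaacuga
The second set was also lower and shows the shared seed of both miR-27 copies, from chromosomes 8 and 13, and the 3 miRNAs of the cluster at chr6:30165962-30169732, minus strand, outside any annotated host gene.
miR-27a-3p: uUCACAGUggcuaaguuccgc
miR-27b-3p: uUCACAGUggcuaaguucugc
miR-182-5p: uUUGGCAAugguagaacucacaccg
miR-96-5p: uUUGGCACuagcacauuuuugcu
miR-183-5p: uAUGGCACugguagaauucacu
The third set was higher at 50 µM, with 3 miRNAs of the imprinted Dlk1-Dio3 region of chromosome 12 and 4 entries that share the letters GAGAUGGCU.
miR-370-3p: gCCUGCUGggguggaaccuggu
miR-494-3p: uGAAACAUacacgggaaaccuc
miR-770-3p: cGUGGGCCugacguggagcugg
miR-3473b: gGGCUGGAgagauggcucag
miR-3473e: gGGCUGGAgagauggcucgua
miR-3473a: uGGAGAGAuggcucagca
miR-5128: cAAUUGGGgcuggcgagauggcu
The last pair shows the 5′ and 3′ arms of 1 hairpin on chromosome 17 that were called in opposite directions.
miR-125a-5p: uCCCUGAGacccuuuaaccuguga
miR-125a-3p: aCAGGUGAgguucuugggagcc

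At 48 h, 72 of the 289 miRNAs tested were higher at 50 than at 10 µM (24.9%) and 45 were lower (15.6%), so 40.5% were called at an adjusted p under 0.05 (limma with Benjamini-Hochberg adjustment; 156 had an unadjusted p under 0.05). Of these, 61 rose and 28 fell by more than 1.5-fold. Above background on all 6 arrays were 35 of the 72 higher and 31 of the 45 lower miRNAs, beside 157 of the 289 tested. On no 10 µM array above it were 17 of the 72. The highest folds belonged to miR-5105 and miR-6243 among those that rose, and to miR-5097, miR-27a-3p, miR-182-5p and miR-18a-5p among those that fell. All 3 pairs of arrays moved the same way for 69 of the 72 higher and for all 45 lower miRNAs. The arrays of the 2 doses did not overlap for 84 tested miRNAs that were higher (29.1%) and 74 that were lower (25.6%). In the experiment 2 pair, in which both arrays lay on slide 1, the median log2 difference was 1.06 over the 72 and -0.55 over the 45, against 0.31 over all tested miRNAs; this pair was part of the fit that made the calls. With slide as a block beside the experiment, 85 were higher and 29 lower, and 13 of the 54 named calls were lost.

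**Figure D1:**
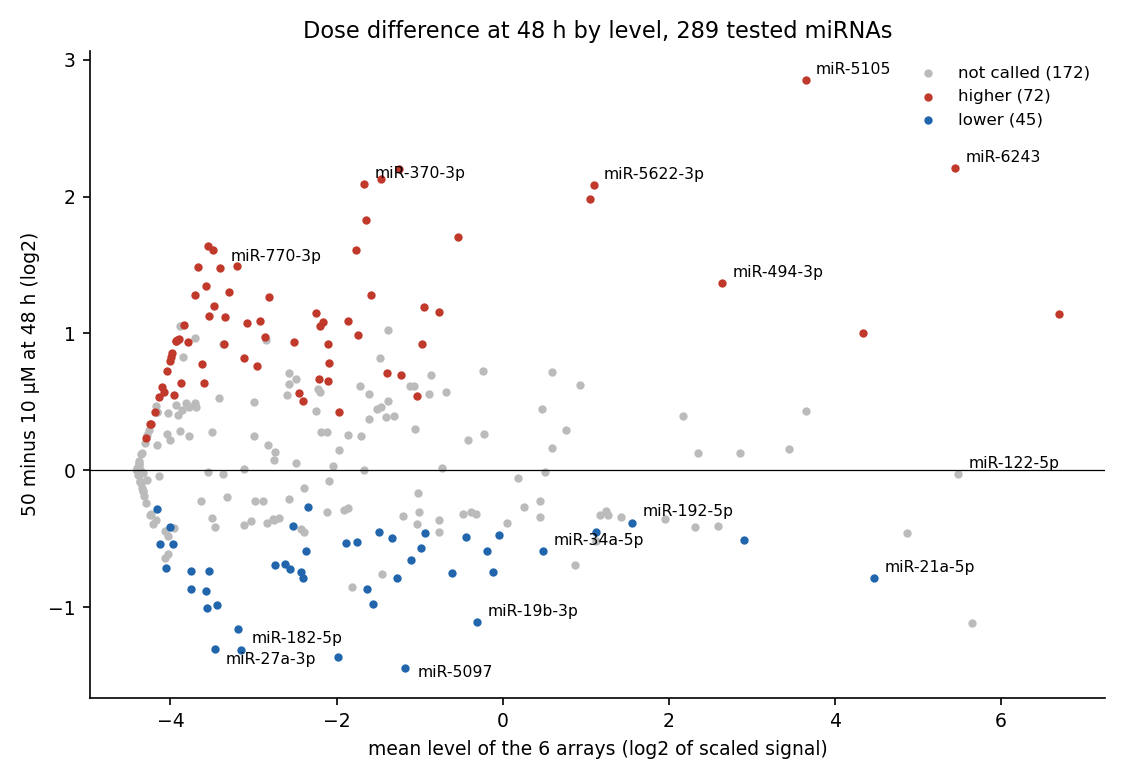
Difference between 50 and 10 µM at 48 h (log2, vertical) against the mean level of the 6 arrays (log2 of the signal over the array's 75th percentile, horizontal) for the 289 tested miRNAs, 1 point each. The 72 higher miRNAs (red) reach 2.85 and the 45 lower ones (blue) reach -1.45, while miR-122-5p, lies at -0.03.

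The numbers of calls moved with the scaling and with the pairing. Higher miRNAs made up 61.5% of the calls as scaled here, and 48.9% with scaling over all probes, 45.0% with quantile normalisation, 42.6% with normexp and quantile normalisation and 42.9% in the deposited value table, and the median difference of all tested miRNAs was 0.12 as scaled here and 0, 0.0015, -0.042 and 0.01 under those settings. Without the experiment as a replicate block, 61 were higher and 21 lower. Of the 54 named miRNAs with a call, 29 kept it in every setting that tested them other than the names of the spot files: 15 higher ones, among them miR-5105, miR-6243, miR-370-3p, miR-494-3p and all 4 with GAGAUGGCU, and 14 lower ones, among them miR-19b-3p, miR-18a-5p, miR-93-5p, miR-106b-5p, miR-24-3p, miR-27b-3p, miR-21a-5p and the miR-182 cluster. The calls of 21 named miRNAs were lost when 1 of the 6 arrays was left out (16, 7 and 19 without 10 µM replicates 1, 2 and 3; 21, 11 and 5 without 50 µM replicates 1, 2 and 3), and these are marked where they are described.

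Among called miRNAs with all 3 pairs moving the same way, miR-5105, miR-6243, miR-5121 and miR-5128 rose most. They have high miRBase numbers, that is, names given late in the catalogue. The next largest rise was that of miR-370-3p, an earlier entry. A level is the log2 of the probe's signal over the array's 75th percentile. For miR-5105, miR-6243, miR-6378 and miR-5097, no RefSeq mature sequence was at hand. miR-5105, an entry of little known function, had levels of 2.53, 2.06 and 2.07 at 10 µM and 5.46, 4.69 and 5.07 at 50 µM in experiments 1 to 3. The 50 µM arrays were all above the 10 µM arrays and above the DMSO arrays, which ran from 1.30 to 2.86 with a median of 1.80. The difference was 2.85 (SE 0.51), or 7.21-fold (adjusted p = 0.000491).

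For miR-6243 the levels were 4.55, 4.22 and 4.27 at 10 µM and 6.66, 6.42 and 6.59 at 50 µM. This was a 4.63-fold rise (log2 difference 2.21, SE 0.40, adjusted p = 0.000492), and the doses did not overlap. miR-6243 alone went from between 3.76% and 4.83% of an array's summed signal to between 14.7% and 16.5%. miR-5622-3p, from a hairpin in the Tpx2 gene span on chromosome 2, went from -0.07, -0.00 and 0.23 to 2.43, 1.89 and 2.09 (4.24-fold, adjusted p = 8.27e-05). miR-5121, in the span of the ribosomal protein gene Rpl13a, rose 4.60-fold (adjusted p = 0.00985) and miR-6378 rose 3.26-fold (adjusted p = 3e-06). miR-1306-3p, from the hairpin in the span of Dgcr8, the gene of the RNA-binding partner of Drosha, rose 3.05-fold from levels of -2.74, -2.72 and -2.24 to -0.89, -1.03 and -0.94 (adjusted p = 0.000798).

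Over the whole list of entries numbered 5000 or above, 26 of 48 tested members were higher and 1 was lower. Over all tested miRNAs, 24.9% were higher and 15.6% lower. Of the 177 members on the array, 42 were above background on at least 1 array at 10 µM and 56 at 50 µM. Members could thus pass the filter through the 50 µM arrays, so the count of higher calls is not independent of the filter. The list had a median log2 difference of 0.69, against 0.12 over all tested miRNAs. Its members took 42.6%, 39.5% and 46.7% of the summed signal at 10 µM and 58.0%, 56.5% and 59.2% at 50 µM. The DMSO arrays at 48 h ran from 37.8% to 52.7%, so the 50 µM arrays lay above all of them and the 10 µM arrays among them. The list's median difference stayed positive under the other scalings, between 0.17 and 0.78. The lower member was miR-5097, with levels of -0.11, -0.94 and -0.29 at 10 µM and -1.86, -2.14 and -1.69 at 50 µM, a 2.73-fold difference (adjusted p = 0.0388). miR-5097 had the largest fall of any called miRNA, but lost its call without the block and whichever of the 6 arrays was left out.

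A group of 4 miRNAs that rose share the letters GAGAUGGCU, a stretch read off these 4 risers after their values were seen, so that their common direction is no finding. It was searched on the strand of the mature miRNA and was found in 4 of the 230 tested miRNAs with a RefSeq sequence (1.74%). miR-3473b had levels of 0.02, 0.27 and -0.12 at 10 µM and 1.79, 2.02 and 2.32 at 50 µM, a 3.96-fold rise (adjusted p = 0.000791). miR-3473a rose 3.56-fold (adjusted p = 0.000912) and miR-5128 rose 4.37-fold (adjusted p = 0.00496). miR-3473e, with the same seed as miR-3473b, rose 3.05-fold (adjusted p = 0.00678), but was above background on 2 of the 3 arrays at 10 µM. Because the probes of these entries match similar sequences, their signals may not be independent, and cross-hybridisation between them was not tested.

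Of 106 miRNAs listed by number as belonging to the imprinted Dlk1-Dio3 region, 9 were tested and 3 were higher, beside 24.9% higher over all tested miRNAs. The list's median was 0.50 (0.07 to 0.32 under the other scalings, with 3 calls in each). miR-1906, whose RefSeq position on chromosome 12 lies in the Meg3 span, is not on that list and was also higher (log2 difference 0.42, adjusted p = 0.0204). The region is known for maternally expressed non-coding genes, among them Meg3 and Rian, that carry large miRNA clusters. miR-494-3p had levels of 1.94, 1.85 and 2.08 at 10 µM and 3.13, 3.30 and 3.56 at 50 µM. It rose 2.58-fold (log2 difference 1.37, SE 0.20, adjusted p = 8.27e-05). miR-370-3p, from the Rian span and known as a regulator of Cpt1a and fatty acid oxidation in liver cells, went from -2.69, -2.67 and -2.79 to -0.79, -0.68 and -0.39, a 4.26-fold rise (adjusted p = 0.00226). miR-770-3p, from the Meg3 span, had -4.15, -4.16 and -4.13 at 10 µM, near the floor of -4.41, and -2.70, -2.63 and -2.66 at 50 µM (2.79-fold, adjusted p = 2.15e-10). It was above background on 2 of 3 arrays at 10 µM and on all 3 at 50 µM. Values near the floor narrow the spread, so the p-value of miR-770-3p may be too small. In each of these 3 miRNAs the 50 µM arrays stood above all 10 µM and all DMSO arrays.

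**Figure D2:**
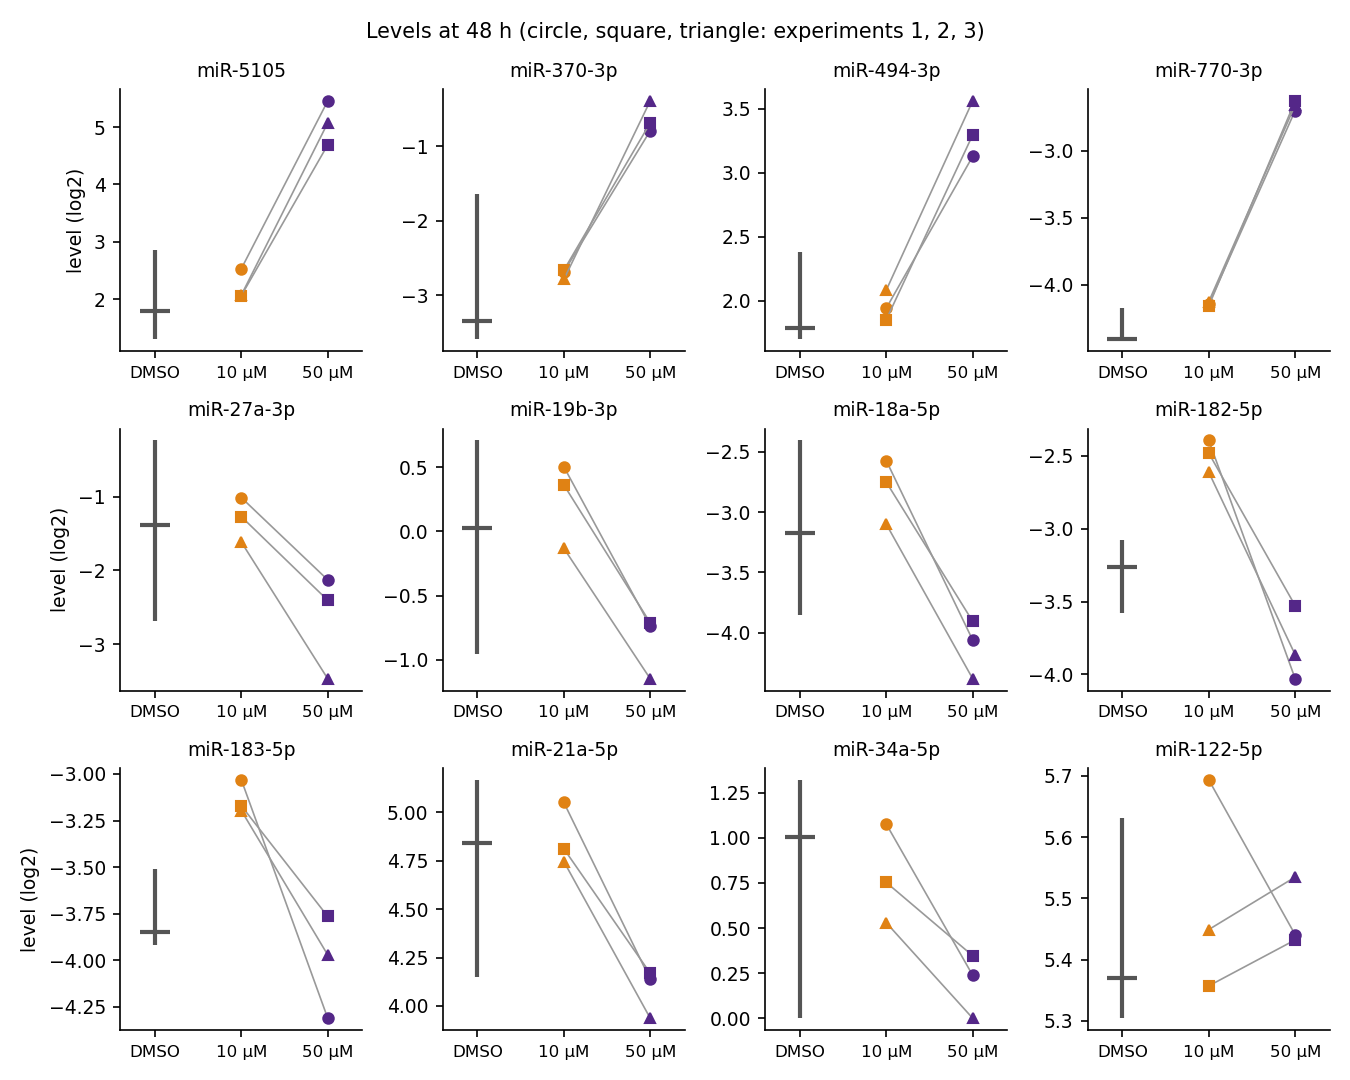
Levels at 48 h (log2 of the signal over the array's 75th percentile) of 12 miRNAs at 10 µM (orange) and 50 µM (purple), with lines joining the arrays of 1 experiment and a grey bar for the range and median of the 6 DMSO arrays. The vertical scale differs between panels: the miR-182-5p arrays at 10 µM lie above all DMSO arrays and those at 50 µM near or below them, while the miR-122-5p pairs do not move the same way.

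Members of the multi-copy miR-669, miR-467, miR-466 and miR-297 families, known from an intron of Sfmbt2, were listed by name alone. Of 61 on the array 11 were tested, and RefSeq placed 4 of these, none of them in Sfmbt2, so the list does not stand for that intron. None of the 11 was called at an adjusted p under 0.05, with a median log2 difference of 0.72 beside 0.12 over all tested miRNAs. Among the risers near the floor, 17 of the 72 were above background on no array at 10 µM, so their folds are bounds. miR-3102-3p was at least 2.53-fold higher, miR-6351 at least 2.21-fold and miR-450a-2-3p at least 1.56-fold. Such entries passed the filter partly through the 50 µM arrays: miR-23a-5p was above background on 2 arrays at 50 µM and 1 in DMSO at 48 h. miR-1931, miR-1945 and miR-23a-5p had an SD of 0 at 10 µM, all at the floor. Flooring thus narrows the spread, and p-values of such entries are not given. For these bounds, the mean at 50 µM over all 3 arrays was set against, on each 10 µM array, the higher of the probe's own signal and the lowest signal well above background. miR-450a-2-3p was the tested member of the X-linked cluster that also holds miR-322 and miR-503, and it lost its call with normexp and quantile normalisation and in the deposited value table.

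Among the miRNAs that fell were most of the growth-linked miR-17/92a cluster and its paralogues. These clusters are known as targets of Myc and E2F factors and are high in dividing cells. Of 10 tested members, 8 fell and none rose, beside 15.6% lower and 24.9% higher over all tested miRNAs. The 10 ranged from -1.31 to -0.42 with a median of -0.77, and pair medians were -0.82, -0.73 and -0.78. miR-19b-3p had levels of 0.50, 0.36 and -0.13 at 10 µM and -0.74, -0.71 and -1.15 at 50 µM. The doses did not overlap, and the difference was -1.11 (SE 0.20), 2.16-fold lower (adjusted p = 0.00056). The DMSO arrays ran from -0.96 to 0.71 and held all 3 arrays at 10 µM and 2 of the 3 at 50 µM.

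miR-18a-5p fell 2.48-fold, from -2.57, -2.75 and -3.10 to -4.06, -3.91 and -4.38 (adjusted p = 8.82e-05), and was above background on 2 of the 3 arrays at 50 µM. The 3 miRNAs of the Mcm7 span fell together: miR-93-5p by 0.87 on the log2 scale (adjusted p = 0.000901), miR-106b-5p by 0.79 (adjusted p = 0.000326) and miR-25-3p by 0.45 (adjusted p = 0.0394). Mcm7 encodes a subunit of the replicative helicase. miR-20a-5p (1.68-fold), miR-20b-5p (1.73-fold) and miR-19a-3p (1.64-fold) were also lower, with adjusted p of 0.0105, 0.011 and 0.0359. The calls of miR-20a-5p and miR-20b-5p were lost without the block, without 10 µM replicate 3 and without 50 µM replicate 1, those of miR-25-3p and miR-19a-3p in 5 and 4 of the 6 settings that leave out an array. The members without a call were miR-17-5p at -0.42 (adjusted p = 0.189) and miR-92a-3p at -0.52 (adjusted p = 0.0646).

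All 5 tested 3p arms of the miR-23/24/27 clusters fell (median -0.75), beside 15.6% lower over all tested miRNAs, while the 5p arm miR-23a-5p was higher. The group is known for regulators of lipid metabolism and of cell growth, with miR-27 acting on Ppara and other lipid genes. For miR-27a-3p the levels were -1.01, -1.27 and -1.62 at 10 µM and -2.13, -2.41 and -3.47 at 50 µM, 2.58-fold lower (log2 difference -1.37, SE 0.25, adjusted p = 0.000611). The 50 µM arrays lay below all 10 µM arrays, but within the wide DMSO range of -2.69 to -0.24 in 2 of 3 cases. miR-23a-3p fell 1.97-fold (adjusted p = 0.00248), miR-24-3p 1.68-fold (adjusted p = 0.00165), miR-27b-3p 1.57-fold (adjusted p = 0.00498) and miR-23b-3p 1.39-fold (adjusted p = 0.0417). The calls of miR-27a-3p and miR-23a-3p were lost without the block, and that of miR-23b-3p in 13 of its 20 alternatives.

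The cluster of miR-182-5p, miR-96-5p and miR-183-5p, best known from sensory cells and as a target of the sterol factor SREBP-2, differed from the other groups at 10 µM. miR-182-5p had levels of -2.39, -2.48 and -2.61 at 10 µM and -4.03, -3.53 and -3.87 at 50 µM, with DMSO arrays from -3.58 to -3.08. The 10 µM arrays were thus above every DMSO array, and 2 of the 3 50 µM arrays were below every one. The dose difference was -1.31 (SE 0.17, 2.48-fold, adjusted p = 2.44e-05). Against DMSO, miR-182-5p was higher at 10 µM by 0.82 (SE 0.14, adjusted p = 0.0087) and lower at 50 µM by -0.49 (SE 0.14, adjusted p = 0.0099).

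miR-183-5p had levels of -3.03, -3.17 and -3.20 at 10 µM and -4.31, -3.77 and -3.97 at 50 µM, against DMSO arrays of -3.92 to -3.51. It was 0.66 higher at 10 µM than in DMSO (SE 0.12, adjusted p = 0.0087) and 0.88 lower on the log2 scale at 50 than at 10 µM, that is -0.88 (SE 0.14, adjusted p = 0.000185). miR-96-5p fell by 1.16 on the log2 scale between the doses (adjusted p = 0.00131), with an unmet threshold for 10 µM against DMSO (0.74, adjusted p = 0.096). All 3 were above background on 2 of the 3 arrays at 50 µM. These 2 contrasts share the 10 µM arrays, so the rise over DMSO and the fall between the doses are not independent.

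The DMSO arrays place the other calls. Against DMSO at 48 h, 53.6% of the tested miRNAs were called at 50 µM and 1.04% at 10 µM, the latter being miR-182-5p, miR-183-5p and miR-221-3p. All 72 higher miRNAs were also called higher at 50 µM against DMSO, with a median of 1.08, while their median at 10 µM against DMSO was 0.03. Of the 45 lower ones, 35 were called lower at 50 µM against DMSO, with medians of -0.59 at 50 µM and 0.09 at 10 µM. The 50 µM arrays enter both comparisons. miR-148a-3p was among the 10 that were not: it fell 1.51-fold between the doses (adjusted p = 0.00678) with levels of 0.39, -0.02 and -0.05 at 10 µM and -0.50, -0.47 and -0.50 at 50 µM, but differed from DMSO at 50 µM by -0.10 (SE 0.14).

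The let-7 family, which represses growth genes such as Hmga2, had 9 tested members, all below 0, with a median of -0.41 and a range of -0.68 to -0.30. Of these, miR-98-5p (1.61-fold), let-7e-5p (1.51-fold), let-7i-5p (1.40-fold) and let-7d-5p (1.37-fold) passed the test, with adjusted p of 0.0168, 0.0241, 0.0283 and 0.0447, and all 4 lost the call without the block and without 10 µM replicate 3 or 50 µM replicate 1. The family took 6.05%, 5.86% and 4.42% of the summed signal at 10 µM and 3.01%, 3.25% and 3.05% at 50 µM, without overlap. These are shares of a summed signal that was larger at 50 µM. In the miR-15/16 family, which acts on cell-cycle genes, 2 of 3 tested members fell (median -0.49), and in the miR-30 family 2 of 5 (median -0.30). The share of lower calls over all tested miRNAs, to be set beside these family counts, was 15.6%. The calls of miR-15a-5p and miR-15b-5p were lost in 14 and 11 of 20 alternatives, and those of miR-30e-5p and miR-30d-5p in 10 and 11. All 3 tested members of the miR-29 family, repressors of collagen and other matrix genes, were below 0 (median -0.35), and none was called: miR-29b-3p differed by -0.45 (SE 0.29, adjusted p = 0.209).

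**Figure D3:**
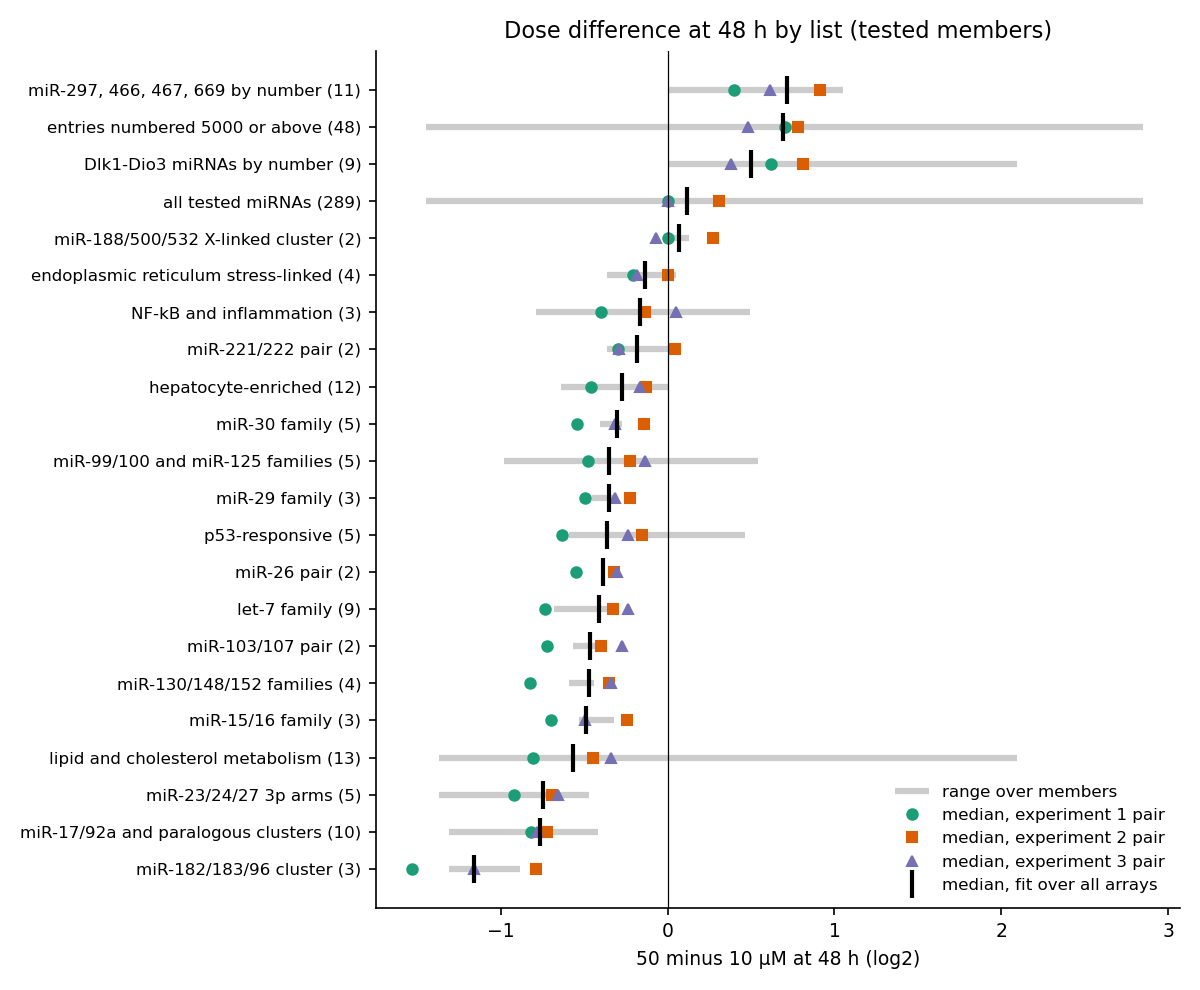
Difference between 50 and 10 µM at 48 h (log2, horizontal) for lists with 2 or more tested members (number in brackets): grey bars span the members, coloured points are the medians of each experiment's pair and black marks the median of the fit. The miR-17/92a, miR-23/24/27, miR-182 and let-7 lists lie below 0 in all 3 pairs (and, as list medians, under every scaling), and entries numbered 5000 or above (median 0.69) lie above 0.

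Of 12 tested members of the hepatocyte-enriched list, 2 fell and none rose, beside 15.6% lower over all tested miRNAs. The median was -0.27, with 10 members below 0, 2 at 0 and none above. Those at 0, miR-192-3p and miR-802-5p, were at the floor on all 6 arrays, so they show no measured difference either way. The list took 12.4%, 12.2% and 9.84% of the summed signal at 10 µM and 7.99%, 8.38% and 8.17% at 50 µM, without overlap. The summed signal itself was larger at 50 µM. miR-122-5p, which supports cholesterol synthesis and the hepatocyte state, had levels of 5.69, 5.36 and 5.45 at 10 µM and 5.44, 5.43 and 5.53 at 50 µM. Its pairs moved in both directions, the difference was -0.03 (95% interval -0.27 to 0.21, adjusted p = 0.874), and its sign changed under several settings. miR-192-5p, the other main hepatocyte miRNA, had levels of 1.97, 1.56 and 1.72 against 1.33, 1.41 and 1.36, 1.30-fold lower (adjusted p = 0.0377), a call lost in 12 of 20 alternatives, the deposited value table among them. miR-194-5p, from the same hairpin cluster on chromosome 19, differed by -0.27 (SE 0.17, adjusted p = 0.211), and miR-193a-3p by -0.28 (SE 0.23, adjusted p = 0.341).

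Stress-linked miRNAs were lower or did not pass the test. miR-21a-5p, from the Vmp1 gene span and known to repress Pdcd4, had levels of 5.05, 4.81 and 4.75 at 10 µM and 4.14, 4.17 and 3.94 at 50 µM. The doses did not overlap, and it fell 1.73-fold (log2 difference -0.79, SE 0.15, adjusted p = 0.000672). Its share of the summed signal, which was larger at 50 µM, went from 6.84%, 7.19% and 5.24% to 2.88%, 3.08% and 2.42%. miR-34a-5p, the p53 target that represses Sirt1 and cell-cycle genes, had levels of 1.08, 0.75 and 0.53 against 0.24, 0.35 and 0.00 (1.51-fold lower, adjusted p = 0.0237), a call lost in 5 of 20 alternatives: without the block, with slide and replicate block, without 10 µM replicate 1 or 3 and without 50 µM replicate 1. In the p53-responsive list as a whole 2 of 5 tested members fell, miR-34a-5p and miR-192-5p, beside 15.6% lower over all tested miRNAs.

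miR-155-5p, induced by NF-kB in immune cells and also on the leukocyte list, was 0.49 higher (SE 0.20, adjusted p = 0.0577). It was above background on 2 of 3 arrays at either dose. In the endoplasmic reticulum stress list, 1 of 4 tested members, miR-30d-5p, fell (1.21-fold), beside 15.6% lower over all tested miRNAs, and that call was lost in 11 of 20 alternatives. miR-221-3p and miR-222-3p, which repress the cell-cycle inhibitor Cdkn1b, were at or near the floor at both doses. miR-221-3p differed by -0.37 (SE 0.20, adjusted p = 0.149) between the doses, but was lower than DMSO at both: by -1.17 at 50 µM (adjusted p = 6.8e-05) and by -0.81 at 10 µM (adjusted p = 0.0299).

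Of 13 tested miRNAs of the lipid and cholesterol list, 8 fell and 1 rose, with a median of -0.57. Over all tested miRNAs, 15.6% were lower and 24.9% higher. The rise in the list was that of miR-370-3p. Those that fell were miR-27a-3p, miR-27b-3p, miR-182-5p, miR-96-5p, miR-148a-3p, miR-185-5p (1.62-fold, adjusted p = 0.00242), miR-103-3p (1.48-fold, adjusted p = 0.0195) and miR-130a-3p (1.37-fold, adjusted p = 0.0447). miR-130a-3p lost its call in 12 of 20 alternatives, miR-103-3p without 10 µM replicate 1 or 3 or 50 µM replicate 1, and miR-148a-3p without 50 µM replicate 1. miR-148a-3p and miR-130a-3p are known as regulators of the LDL receptor and of cholesterol export, miR-185-5p of sterol and HDL uptake genes, and miR-103-3p of insulin signalling. miR-378a-3p, from an intron of Ppargc1b, differed by 0.03 (SE 0.16, adjusted p = 0.94) and was below 0 under the other scalings. The list's median was -0.87 to -0.51 under those scalings.

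The 2 doses were also compared at 24 h, with 3 arrays at 10 and 2 at 50 µM. Both 50 µM arrays came from experiments 2 and 3, in which the files were exchanged between the doses at 24 h too. There miR-770-3p was the single call (0.346%), higher by 0.76 (SE 0.08, adjusted p = 2.58e-05). The median difference at 24 h over the 72 miRNAs that were higher at 48 h was 0.46, and 66 of the 72 were above 0, against a median of 0.09 over all tested. Over the 45 lower ones the median was -0.04 and 27 were below 0.

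The difference between the times was tested directly: in 22 miRNAs (7.61%) the dose difference at 48 h differed from that at 24 h, 14 in the higher direction (4.84%) and 8 in the lower (2.77%). The 8 lower ones included miR-18a-5p (0.13 at 24 h and -1.31 at 48 h; difference of -1.44, SE 0.29, adjusted p = 0.00755), miR-27a-3p (-0.03 and -1.37), miR-19b-3p (0.06 and -1.11), miR-125a-5p (0.07 and -0.98) and miR-182-5p (-0.41 and -1.31). In the first 4 of these the 24 h value was within its SE of 0. Of the 14 in the higher direction, 11 were above background on no 10 µM array at 48 h, so the size of those differences depends on the floor. miR-6378 (0.53 and 1.70, adjusted p = 0.0176) was the 1 of the 14 above background on all 6 arrays. With scaling over all probes 3 miRNAs were called in this test, and in the deposited value table none.

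**Figure D4:**
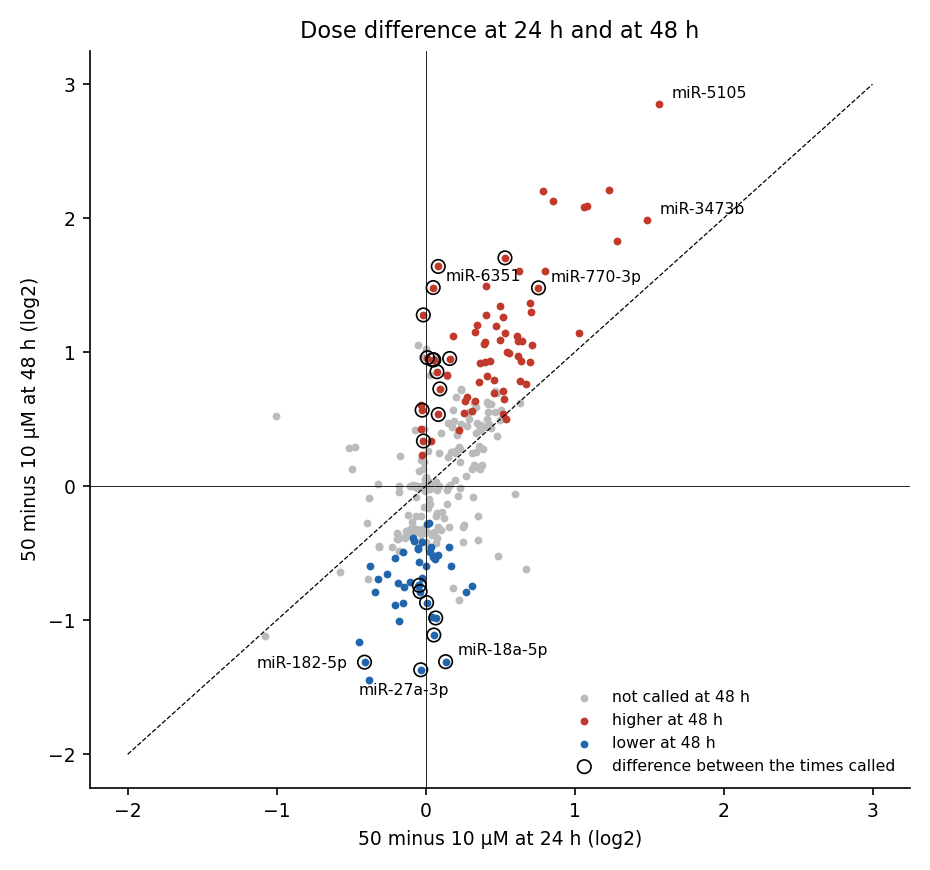
Difference between 50 and 10 µM at 48 h (log2, vertical) against that at 24 h (log2, horizontal) for the 289 tested miRNAs, coloured by the call at 48 h, with rings around the 22 whose difference between the times was called and a dashed line of equality. Most red points lie above the line with values above 0 at both times, and the blue points lie below 0 at 48 h while scattering around 0 at 24 h.

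The calls were next set beside features of the RNAs that the comparison does not use. RefSeq held mature sequences for 57 of the 72 higher and 39 of the 45 lower miRNAs. The largest riser, miR-5105, and the largest faller, miR-5097, were among those without one, as were miR-6243 and miR-6378. The median share of G and C was 60.9% in the higher, 45.5% in the lower and 54.5% in those not called. Among miRNAs above background on all 6 arrays the medians were 61.4%, 41.9% and 54.5%. Across the 230 miRNAs with a sequence, Spearman's rho between this share and the dose difference was 0.42, given as a description, since miRNAs on 1 array share its hybridisation and wash. The base composition therefore moved with the result, and its part in it was not tested.

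**Figure D5:**
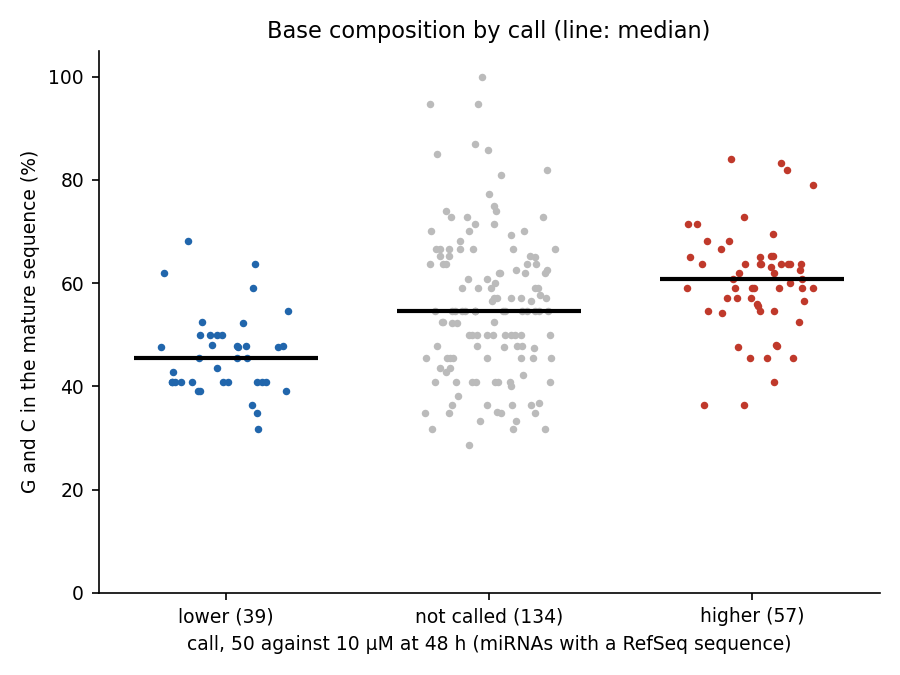
Share of G and C in the mature sequence (%) of the tested miRNAs with a RefSeq sequence, 1 point each, by the call between 50 and 10 µM at 48 h, with black lines at the medians. The medians are 45.5% for the lower, 54.5% for those not called and 60.9% for the higher miRNAs, and the groups overlap widely.

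The calls were also grouped by genomic neighbourhood. With miRNAs within 10 kb of each other joined, 22 groups held 2 or more tested miRNAs and 8 held 2 or more calls. In 5 of these 8 all calls were lower: the miR-17/92a cluster on chromosome 14, the Mcm7 group on chromosome 5, the miR-182 group on chromosome 6, the miR-27b/24 group on chromosome 13 and the miR-92a/19b/20b group on chromosome X. In none were all calls higher. Over all tested miRNAs, 15.6% were lower and 24.9% higher. The groups are not separate measurements, since miR-19b-3p and miR-92a-3p counted on chromosomes 14 and X, and miR-24-3p on chromosomes 8 and 13. The groups on chromosomes X and 13 reached 2 calls only through such a shared miRNA. By seed, 14 of the lower miRNAs fell into 5 seeds shared by 2 or more lower calls, and 2 higher ones into 1 seed. None of the 18 seeds with 2 or more tested miRNAs had calls in both directions. Most of the 18 held fewer than 2 calls and so could not show this. Members with the same seed can have similar sequences, and cross-hybridisation between them was not tested.

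The 3 groups with calls both ways included 2 in which the arms of 1 hairpin moved apart. Of 16 precursors with both arms tested, miR-125a, miR-99b and miR-23a had 1 arm called in each direction. miR-125a-5p had levels of -2.74, -2.97 and -3.13 at 10 µM and -3.66, -3.84 and -4.29 at 50 µM and fell 1.98-fold (adjusted p = 0.00131). Its partner miR-125a-3p had -1.54, -1.34 and -1.02 against -0.82, -0.85 and -0.61 and rose 1.45-fold (adjusted p = 0.0321), but lost its call in 9 of 20 alternatives and was at -0.044 in the deposited value table. miR-99b-5p fell 1.45-fold, a call lost in 8 of 18 alternatives, while miR-99b-3p was higher by 0.78, and miR-23a-3p fell while miR-23a-5p, above background on no 10 µM array, was at least 1.31-fold higher.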

How the data were processed

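miRNAs were measured on 22 single-colour Agilent arrays on 3 slides. Per the file headers, the deposited spot intensities were made by Feature Extraction, version 10.7.3.1, and the processed intensity is background-subtracted. The deposited value table holds log2 values with a minimum of -1, made with R 2.15.2 per the submitters' processing notes. Members, lists and the rule for named miRNAs were chosen with earlier results of these data known. Each spot file was tied to the table column that its total gene signal matched in rank.

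From the files, the processed signals of non-outlier spots were averaged per probe and scaled to the array's 75th percentile (188 to 605 units), taken from the 281 probes that every array detected. Values were floored at 0.0471 (-4.41 in log2), and the brightest probe stood for a miRNA. A probe counted as above background where at least 0.5 of its spots did (14.4% of probe-array pairs), and 289 miRNAs above it on 3 or more arrays were tested. limma 3.58.1 (R 4.3.3) was fitted to all 22 arrays with group and experiment as terms, with Benjamini-Hochberg adjustment over all 289 and calls at 0.05. The labels give the same experiment numbers to all groups. Deviations from the dose means correlated at 0.37, 0.28 and 0.43 within experiments 1, 2 and 3. Correlations between arrays of different experiments were not computed, so these values do not establish the pairing. Named were the 12 largest called differences in each direction with all 3 pairs moving one way, 18 miRNAs of prior interest, the called list members (at most 4 for the large lists) and the 5 largest differences between times in each direction. Where 2 arms or copies could share a probe signal, this was not tested. The scripts were tested on simulated data. Alternatives for normalisation, filter, probe rule, variance, block, samples and naming were tried.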

Additional observations from a re-analysis of the deposited data

Results flagged for a closer look

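In DMSO at 48 h, replicate 6 stood apart from the other 5 arrays in 12 named miRNAs, in that its gap to the nearest array was large against the whole range. Chance gives such a gap in about 1 in 20 groups. It was the highest array for miR-5121 at -0.68, miR-370-3p at -1.65, miR-5622-3p at 0.74, miR-3102-3p at -4.02, miR-1306-3p at -1.68, miR-3473e at -2.04, miR-494-3p at 2.39, miR-155-5p at -3.77, miR-125a-3p at -0.59 and miR-3096b-5p at -3.50. Replicate 6 was the lowest for miR-194-5p at 0.0112 and miR-103-3p at -1.01. These levels entered the fit through the shared spread and the comparisons with DMSO. Replicate 4 was the highest for miR-222-3p at -4.21, and replicate 2 for miR-770-3p at -4.18, both near the floor of -4.41.

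The dose difference at 48 h differed from that at 24 h in 13 named miRNAs, by the test of that difference itself. It was larger at 48 h for miR-6351 (1.43), miR-3102-3p (1.56), miR-3096b-5p (1.29), miR-6378 (1.17), miR-450a-2-3p (0.95) and miR-770-3p (0.72). The dose difference was lower at 48 h for miR-18a-5p (-1.44), miR-27a-3p (-1.34), miR-19b-3p (-1.16), miR-125a-5p (-1.05), miR-182-5p (-0.90), miR-93-5p (-0.87) and miR-106b-5p (-0.75).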

How the results depend on the processing

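Across 1340 single-miRNA comparisons with an alternative, 1087 kept direction and side of the threshold, 182 kept direction but lost the call, 6 gained one and 65 changed sign, of which 52 came with the names of the spot files. Under those names there was no call higher, lower or between the times (0, 0 and 0), and the log2 differences became miR-5105 -0.90, miR-6378 -0.88, miR-370-3p -0.83, miR-6243 -0.80, miR-3473b -0.80, miR-3473a -0.78, miR-5121 -0.73, miR-6351 -0.70, miR-5128 -0.65, miR-494-3p -0.58, miR-770-3p -0.52, miR-450a-2-3p -0.49, miR-3473e -0.47, miR-3096b-5p -0.46, miR-3102-3p -0.43, miR-5622-3p -0.42, miR-1306-3p -0.38, miR-155-5p -0.18, miR-378a-3p -0.14 and miR-125a-3p -0.063; and miR-27a-3p 0.62, miR-125a-5p 0.37, miR-18a-5p 0.32, miR-23a-3p 0.31, miR-28a-5p 0.29, miR-5097 0.29, miR-19b-3p 0.28, miR-93-5p 0.28, miR-20b-5p 0.26, miR-27b-3p 0.25, miR-106b-5p 0.23, miR-182-5p 0.22, miR-99b-5p 0.22, miR-193a-3p 0.22, miR-20a-5p 0.21, miR-29b-3p 0.19, miR-21a-5p 0.18, miR-96-5p 0.14, miR-24-3p 0.14, miR-331-3p 0.091, miR-98-5p 0.062, miR-185-5p 0.053, let-7e-5p 0.049, miR-23b-3p 0.046, miR-25-3p 0.044, miR-34a-5p 0.033, miR-183-5p 0.0296, miR-15a-5p 0.028, miR-103-3p 0.027, let-7d-5p 0.00907, miR-148a-3p 0.0054 and let-7i-5p 0.0011. The exchange of arrays between the doses is the construction of this setting.

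Counts are given as higher, lower and different between the times, against 72, 45 and 22. Without the replicate block they were 61, 21 and 10, with slide and replicate block 85, 29 and 11, with scaling over all probes 46, 48 and 3, with quantile normalisation 58, 71 and 5, with normexp and quantile normalisation 49, 66 and 1, and from the authors' deposited values 42, 56 and 0. Requiring 11 arrays above background (218 tested) gave 46, 33 and 2, and all 6 arrays (157 tested) 35, 22 and 0. The fits to the 48 h arrays or the 6 arrays, no filter, the mean over probes and trended robust variance kept all counts they gave within 1.5 times. Leaving out 1 of the 6 arrays gave 56 to 66 higher, 22 to 50 lower and 6 to 21 between the times. The lower count was 27 and 24 without 10 µM replicate 1 or 3 and 22 without 50 µM replicate 1. The count between times was 12, 11 and 7 without 10 µM replicates 1, 2 and 3 and 6 without 50 µM replicate 3. Without DMSO replicate 6 at 48 h, chosen after seeing the data, it was 92, 52 and 25, and the calls at 24 h went from 1 to 9.

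miR-122-5p changed sign with the slide and replicate block and with the mean over probes (0.0404 and 0.0397), without 10 µM replicate 1 (0.027) or 50 µM replicate 1 (0.044) and within slide 1 (0.11), and ranged from -0.11 to 0.044 with 1 of the 6 arrays left out. miR-378a-3p was -0.28 with all probes, -0.32 with quantile normalisation, -0.15 with normexp and -0.24 in the value table, and ranged from -0.091 to 0.15 with 1 of the 6 arrays left out (-0.0011 without 10 µM replicate 2, -0.091 without 50 µM replicate 3). miR-125a-3p was -0.044 in the value table and miR-221-3p 0.049 within slide 1. The cause was not tested. Signal limits the dim miRNAs: 17 higher ones were not well above background at 10 µM, and 3 arrays per dose limit all of them.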

Other observations

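A pair of entries outside the named set with large shares of the signal, chosen after their values were seen, moved opposite ways. miR-5109 rose from 10.2%, 16.5% and 20.6% of the summed signal at 10 µM to 22.9%, 26.98% and 26.1% at 50 µM, with a log2 difference of 1.14 (SE 0.23, adjusted p = 0.000996 by limma). miR-6366 took 21.7%, 12.01% and 15.9% at 10 µM and 5.72%, 4.73% and 6.52% at 50 µM, without overlap, but its difference of -1.11 (SE 0.52) did not pass the test (adjusted p = 0.09). The DMSO arrays at 48 h ran from 12.5% to 30.2% for miR-6366 and from 10.3% to 23.5% for miR-5109.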
